A study of Mus musculus with 22 samples.

Results

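The 85 rows described here are those of a 6054-row count table of mouse muscle that carry a RefSeq noncoding-transcript accession and are not small nucleolar RNAs. Membership was set by the accession and the symbol alone, and 10 further rows with such an accession, all small nucleolar RNAs, were left out. The remaining 5959 rows carry mRNA accessions and are called mRNA rows here. The label of noncoding transcripts held for part of the list only. By RefSeq's gene table for GRCm38.p6, noncoding genes made up 24 of the 85: 20 long noncoding RNA (lncRNA) genes, 3 small structured RNAs and 1 pseudogene. The other 61 were protein-coding genes, such as Fth1, Psmd2, Atp2a2 and Ppargc1a, whose row carries a noncoding-transcript accession. Some of these accessions were not found in RefSeq's table, and their rows were matched to a coding gene by symbol or synonym. Whether a coding gene's row counts the listed transcript alone or the whole gene is not given in the sources used here. The 61 are therefore described apart from the 24.

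The study asked whether leucine, an amino acid that activates mTORC1 kinase signalling, alters the translation of particular genes in muscle. Quadriceps came from C57Bl/6 mice that had all been fasted overnight and received either leucine or vehicle by oral gavage 30 minutes before death. RNA sequencing of ribosomal-RNA-depleted total RNA gave 6 leucine and 5 vehicle libraries, and ribosome profiling, which sequences the fragments left after nuclease digestion of polysomes, gave 6 leucine and 5 vehicle footprint libraries. The labels give the strain but no sex, age, genetic modification or dose.

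Noncoding RNAs act as RNA. Some guide or catalyse the processing of other RNAs, some scaffold nuclear bodies, some silence neighbouring genes in cis, and others carry small nucleolar RNAs in their introns. Muscle is also known for RNAs that were first catalogued as noncoding and later found to encode micropeptides, among them myoregulin, which inhibits the calcium pump of the sarcoplasmic reticulum, and mitoregulin, a protein of the mitochondrial inner membrane. A row's ratio of footprints to RNA is taken here as its mean footprint level over its mean RNA level, both as CPM, counts scaled to a common total with TMM factors. Total transcript length cancels in this ratio. The share of a transcript that is coding does not, and which part of it was counted is not given in the sources used here. A ratio of 1 marks the level that the scaling sets for a typical row and does not stand for equal numbers of molecules.

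The reading frames of both micropeptides are shown because their rows, 2310015B20Rik and 1500011K16Rik, still carried noncoding accessions while the annotation held a coding frame. They were read from GENCODE M21 transcripts (GRCm38), on chromosome 10, plus strand, for Mrln (2310015B20Rik) and on chromosome 2, minus strand, for Mtln (1500011K16Rik). Capitals mark the start and stop codons of frames that encode 46 and 56 amino acids.
Mrln: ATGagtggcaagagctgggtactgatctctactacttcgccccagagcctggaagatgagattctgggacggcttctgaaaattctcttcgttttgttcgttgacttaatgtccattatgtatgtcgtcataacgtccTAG
Mtln: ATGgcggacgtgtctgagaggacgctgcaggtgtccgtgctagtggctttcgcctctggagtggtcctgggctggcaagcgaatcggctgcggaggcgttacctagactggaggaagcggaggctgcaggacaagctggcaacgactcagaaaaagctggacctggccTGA

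The start region of Gas5 is shown because Gas5 is known to begin with a terminal oligopyrimidine tract, the element that puts mRNAs of ribosomal proteins under mTORC1 control. It is taken from RefSeq (GRCm38.p6, chr1:161035116-161035215, plus strand), with 50 bases before and 50 bases from the annotated start, and the capitals mark the pyrimidine run at the start.
Gas5: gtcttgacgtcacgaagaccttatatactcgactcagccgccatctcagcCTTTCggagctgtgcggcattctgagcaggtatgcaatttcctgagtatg
A C at the annotated start followed by 4 bases that are each C or T was searched on the sense strand only. It was present in 2.51% of 32851 promoter windows in the RefSeq table and in 17.81% of the 73 windows of Rpl and Rps symbols. Members were counted by gene rather than by window, so their number cannot be set beside these percentages. No share per gene over all genes was taken. The tract was found at any window of 7 of the 65 members that have one, namely Gas5, 1700020I14Rik (Oip5os1), Fut8, Mipep, Mtmr2, Pafah1b1 and Surf1. Their log2 footprint changes, leucine minus vehicle, ranged from −0.32 for Gas5 to 0.024 for Mipep.

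Total counts lay between 17941961 and 30944085 in leucine RNA, between 15016267 and 27305083 in vehicle RNA, between 21697096 and 47646844 in leucine footprints and between 24432316 and 48996109 in vehicle footprints. Whether each library is a separate animal is not stated in the labels, and a p-value here measures library-to-library spread only, which may be technical. All 7 skeletal muscle markers were measured and took 33.6% to 40.1% of counts in leucine RNA and 34.6% to 41.8% in vehicle RNA. Column names fall into a pair of sets, called A and B here, that the sources do not explain, with 3 leucine and 3 vehicle libraries of each assay in set A, and 3 leucine and 2 vehicle libraries of each assay in set B. On the first principal component of RNA, with 47.5% of the variance, leucine library A3 lay away from the rest. The first component of footprints, with 40.9%, parted the sets, with set A from −12.7 to −2.99 and set B from 6.37 to 15.8. The main fits carried no term for the set. Footprint libraries leucine A3 and vehicle A2 had high Gas5 and small nucleolar RNA counts, and results that rest on them are given with and without them where both were run. Vehicle footprint library A3 was the lowest of its group for several noncoding genes, such as Malat1, Kcnq1ot1 and Gm17821, but not for others, such as Neat1.

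The table lists abundant rows only, and this bears on the ratios. Its lowest value was 129 counts, so an RNA with fewer footprints in any library could not be among the 85. In the authors' deposited RNA table, 338 rows carried a noncoding accession that was not of a small nucleolar RNA, and 79 of them (23.4%) also stood in the count table. Split by RefSeq, the count table held 54.9% of the 102 coding genes among these rows but 9.8% of the 234 noncoding genes, against 56.1% of the 9588 mRNA rows. The authors' deposited footprint table listed 9766 mRNA rows and 0 rows with a noncoding accession.

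The 85 rows took 1.5002% ± 0.1205 of counts in leucine RNA (SD, n = 6) and 1.44% ± 0.0864 in vehicle RNA (SD, n = 5). Their share of footprints was 0.522% ± 0.0468 in leucine (SD, n = 6) and 0.614% ± 0.107 in vehicle (SD, n = 5). Malat1 alone held 0.737% of leucine RNA counts and 0.746% of vehicle RNA counts, but 0.0884% and 0.0954% of the leucine and vehicle footprints. Against RNA, footprints of 42 members were lower and of 20 were higher in leucine muscle, where 39.4% and 37.7% of all 6054 rows were lower and higher (edgeR's quasi-likelihood test, Benjamini-Hochberg adjusted p under 0.05). The counts were also 42 lower and 20 higher in vehicle muscle, where 38% and 37.2% of all rows were lower and higher. The median log2 ratio of the 24 noncoding genes was −1.15 in leucine and −1.08 in vehicle. For the 61 coding members it was −0.10 in both, close to the 0.03 in leucine and 0.02 in vehicle of the 5959 mRNA rows. By class, 16 noncoding genes had fewer footprints than RNA by the test in each treatment, and 3 in leucine and 2 in vehicle had more. Among coding members, 26 were lower in each treatment, and 17 in leucine and 18 in vehicle were higher, beside 39.3% of mRNA rows lower and 38% higher in leucine and 37.9% lower and 37.4% higher in vehicle. Below the 5th percentile of mRNA rows lay 10 noncoding genes in leucine and 9 in vehicle, against 2 and 3 coding members. The noncoding genes spanned log2 ratios of −6.56 to 2.65 in leucine and −5.35 to 3.33 in vehicle, wider than the coding members. On the upper side this rested on Tbrg3 alone. The 95th percentile of the noncoding genes, 0.57 in leucine and 0.67 in vehicle, lay below the 1.28 and 1.25 of the coding members.

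**Figure D1:**
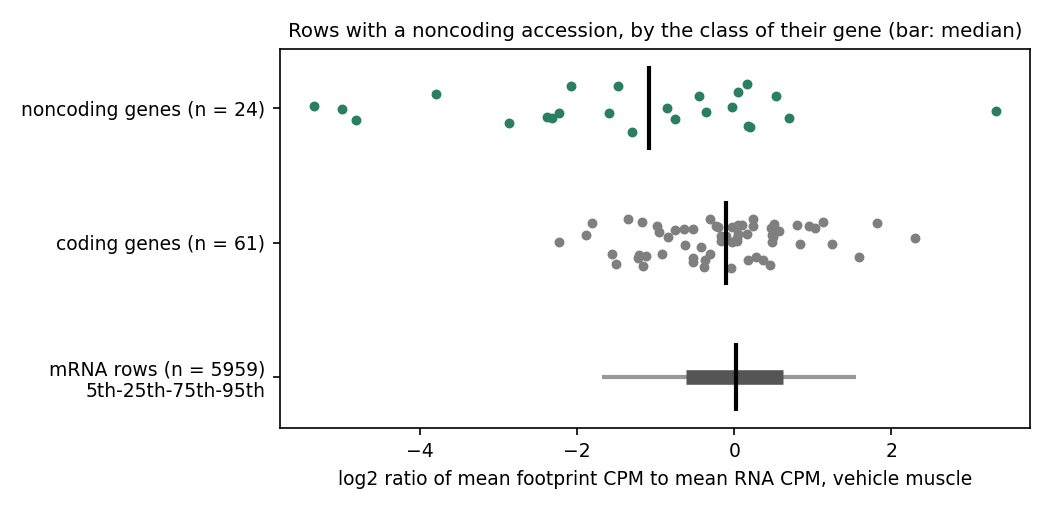
Log2 ratio of mean footprint CPM to mean RNA CPM in vehicle muscle (x axis) for the 24 noncoding genes (green points), the 61 coding genes (grey points) and the 5959 mRNA rows (thin bar 5th to 95th percentile, thick bar 25th to 75th). Black bars are medians, −1.08 for the noncoding genes and −0.10 for the coding genes, and 9 noncoding genes lie left of the mRNA 5th percentile.

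The lowest ratios belonged to catalytic RNAs of RNA processing. Rmrp is the RNA of RNase MRP, an enzyme that cuts precursor ribosomal RNA. Its footprints (lowest, median, highest) were 5.86, 7.92 and 18.1 CPM in leucine and, by library, 7.80, 11.1, 15.5, 20.002 and 22.2 CPM in vehicle. Its RNA was 550.1, 796 and 1314 CPM in leucine and 429, 447, 506, 838 and 903 CPM in vehicle. In every library footprints were thus far below RNA, with a ratio of 0.0106 in leucine and 0.0245 in vehicle, a log2 difference of −6.60 ± 0.36 (SE) and −5.38 ± 0.36 (edgeR adjusted p = 1.53e-09 and 8.54e-08). Rpph1, the RNA of RNase P, which trims the 5′ ends of precursor tRNAs, had 9.25, 11.8 and 15.4 CPM of footprints in leucine and 7.53, 11.8, 14.1, 17.2 and 18.3 CPM in vehicle. Its RNA was 365, 539.5 and 784 CPM in leucine and 264, 305, 369, 566 and 688 CPM in vehicle. Here too no footprint library came near an RNA library, and the ratio was 0.0217 in leucine and 0.0314 in vehicle (edgeR adjusted p = 4.55e-11 and 1.14e-07). Per kilobase of listed length, which 79 members have, these stood first and second in RNA, at 3218 CPM per kb in leucine and 2271 in vehicle for Rmrp, and 1714 and 1349 for Rpph1.

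Rnu12, the U12 small nuclear RNA of the minor spliceosome, was less far down. Its footprints were 13.2, 17.7 and 44.5 CPM in leucine and 13.2, 15.6, 21.1, 35.9 and 46.3 CPM in vehicle, and its RNA was 65.6, 93.2 and 162 CPM in leucine and 46.6, 51.8, 63.3, 73.5 and 91.4 CPM in vehicle. The ratio was 0.209 in leucine and 0.405 in vehicle, with log2 differences of −2.29 ± 0.33 and −1.33 ± 0.35 (edgeR adjusted p = 2.19e-05 and 0.00480). Within set A alone the vehicle difference, −0.93, missed the threshold (adjusted p = 0.0860).

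Nuclear lncRNAs followed. Neat1, the scaffold of paraspeckles, had 9.38, 16.7 and 22.3 CPM of footprints in leucine and 11.2, 13.5, 13.8, 22.8 and 28.6 CPM in vehicle. Its RNA was 465, 528 and 751 CPM in leucine and 465.5, 484, 505, 519.5 and 552 CPM in vehicle. The ratio, 0.0288 in leucine and 0.0356 in vehicle, lay in vehicle below that of every mRNA row, as did those of Rmrp and Rpph1. Malat1, an abundant RNA of nuclear speckles, had 887, 971 and 1123 CPM of footprints in leucine and 500.3, 882, 904, 1062 and 1462 CPM in vehicle. Its RNA was 6432, 6696 and 7371 CPM in leucine and 5969.6, 6655, 7155, 7447 and 7947 CPM in vehicle. Vehicle libraries A3 and A2 marked both ends of its footprint values and enclosed all leucine libraries, and its ratio was 0.145 in leucine and 0.137 in vehicle. Kcnq1ot1, an imprinted RNA that silences its neighbours in cis, had 148 ± 25.4 CPM of footprints in leucine (SD, n = 6) and 135 ± 38.4 CPM in vehicle (SD, n = 5). Its vehicle footprints were 76.1 CPM in A3, again the lowest, and 115 to 166 CPM in the other vehicle libraries. Its ratio was 0.397 in leucine and 0.332 in vehicle, inside the range of mRNA rows. All 3 differed from RNA in both treatments (edgeR, largest adjusted p = 6.58e-06, for Kcnq1ot1 in vehicle). Kcnq1ot1 overlaps Kcnq1 on the other strand, and whether the authors counted by strand is not given in the sources used here.

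1700020I14Rik, whose current symbol is Oip5os1 and which is also known as Cyrano, an RNA that directs the decay of a microRNA, had footprints of 11.6, 15.3 and 16.9 CPM in leucine and 13.8, 14.2, 16.3, 17.4 and 22.04 CPM in vehicle. Its RNA was 207, 228 and 274 CPM in leucine and 202, 213, 244, 244 and 257 CPM in vehicle. The libraries of each group were tight, and the ratio was 0.0629 in leucine and 0.0721 in vehicle. Only 1 of the 5959 mRNA rows lay lower in vehicle. Its adjusted p, 9.42e-12 in leucine and 4.54e-10 in vehicle (edgeR), was the smallest of all members in both treatments.

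Among lncRNAs with clone or predicted names, Gm19757, A130077B15Rik, Gm10845 and A330023F24Rik had vehicle log2 differences of −2.40, −2.33, −2.26 and −2.10, all past the edgeR threshold. Vehicle footprint library A3 was the lowest for A130077B15Rik, at 10.7 CPM against 20.5 to 35.9 CPM in the others. The same held for A330023F24Rik, at 3.82 CPM against 5.62 to 10.8 CPM. For Gm19757 and Gm10845 another vehicle library was lowest. Nctc1, a transcript from the Igf2 and H19 region known from mouse muscle, had 21.96 ± 7.16 CPM of footprints in leucine (SD, n = 6) and 22.99 ± 8.08 in vehicle (SD, n = 5), with ratios of 0.338 and 0.359. Its level differed between the sets in both assays, with leucine RNA means of 79.6 CPM in set A and 50.4 CPM in set B. 2210408F21Rik, 2310001H17Rik, A630089N07Rik and 2310040G24Rik had smaller vehicle differences, from −0.88 to −0.39, and also passed. A630089N07Rik missed the threshold within set B in vehicle (log2 difference −0.25, edgeR adjusted p = 0.150) and within set A in leucine (−0.34, adjusted p = 0.134). Its lowest vehicle footprint value, 12.9 CPM, was also in library A3, against 19.6 to 24.4 CPM in the others. In leucine the difference of 2310040G24Rik was −0.20 (edgeR adjusted p = 0.0994). The 19 rows with clone or predicted names also include coding genes, such as 2610001J05Rik and 1500011K16Rik, and the pseudogene Gm17821. Over all 19, 10 were lower and 4 higher in footprints in leucine, and 11 lower and 2 higher in vehicle. Of the 20 lncRNA genes under any name, 13 were lower and 2 higher in each treatment. Of all rows, 39.4% were lower and 37.7% higher in leucine, and 38% lower and 37.2% higher in vehicle. GENCODE lists the transcript of A630089N07Rik as protein-coding, against RefSeq's class.

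Not every lncRNA was low. 2310050B05Rik (Atcayos), Peg13, 2310065F04Rik and Gm16119 (Uckl1os) had vehicle ratios of 0.978, 1.03, 1.13 and 1.12, and the pseudogene Gm17821 had 1.15. None of these 5 differed from RNA by the edgeR test in vehicle. In leucine, Gm17821 was higher in footprints (ratio 1.37, edgeR adjusted p = 0.00688), though not within set A (adjusted p = 0.0505). In vehicle, Gm17821 passed without footprint library A3 (adjusted p = 0.00915) and 2310065F04Rik without RNA library B1 (adjusted p = 0.0437). In leucine, 2310065F04Rik was lower in footprints within set B (log2 difference −0.38, edgeR adjusted p = 0.000663). On the other strand, Atcayos overlaps Nmrk2 and Atcay, and Uckl1os overlaps Uckl1 and Zfp512b. Peg13, an imprinted RNA, lies inside Trappc9 on the same strand. Reads of overlapping genes cannot be told apart here. Gm14492 (Prr33), which RefSeq lists as lncRNA although its longest open frame encodes 260 amino acids, had footprints of 57.2, 65.95 and 81.3 CPM in leucine and 55.8, 57.6, 59.2, 74.1 and 79.4 CPM in vehicle. Its RNA was 29.3, 45.8 and 57.8 CPM in leucine and 29.1, 38.4, 40.8, 45.4 and 47.6 CPM in vehicle. Its ratio was 1.51 in leucine and 1.62 in vehicle, above RNA in both (edgeR adjusted p = 0.0116 and 0.00107). With total counts in place of TMM, which moved the median of all rows to −0.25 in leucine, the leucine log2 differences of Gm17821 and Gm14492 were 0.18 and 0.31 (edgeR adjusted p = 0.261 and 0.231). Among the 19 lncRNA genes with a GENCODE transcript, the longest open frame ran from 58 to 260 amino acids with a median of 98, and that of Prr33 was the longest. Prr33 overlaps Lsp1 and Tnnt3 on the other strand.

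Tbrg3 stood at the other end. Its footprints were 209.6, 569 and 1056 CPM in leucine and 536, 567, 762, 1199.6 and 2385 CPM in vehicle, against RNA of 50.4, 85.4 and 204 CPM in leucine and 80.2, 84.96, 103, 133 and 141 CPM in vehicle. Every footprint library exceeded every RNA library, and the groups of one assay overlapped. The ratio was 6.26 in leucine and 10.04 in vehicle (log2 difference 2.61 ± 0.40 and 3.31 ± 0.43, edgeR adjusted p = 4.65e-05 and 2.90e-05), and 5950 of 5959 mRNA rows lay below it in vehicle. The difference was 2.29 within set A and 4.41 within set B in vehicle. RefSeq places Tbrg3 inside the span of the coding gene Tcf20, and how the authors handled reads that match several places is not given.

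Gas5, the host of intronic small nucleolar RNAs, depended on 2 libraries and on the set. Its footprints were 46.8, 83.9 and 380.0 CPM in leucine and 49.7, 62.8, 104, 125 and 455 CPM in vehicle, and its RNA was 102, 143 and 223 CPM in leucine and 75.4, 102, 107, 120.1 and 146 CPM in vehicle. The highest footprint values came from leucine A3 and vehicle A2, where small nucleolar RNA rows took 0.135% and 0.33% of counts, against 0.0146% to 0.0699% in the other leucine and 0.0247% to 0.0984% in the other vehicle footprint libraries. The part of those RNAs in the Gas5 counts was not tested. The log2 difference from RNA was −0.32 ± 0.47 in leucine and 0.52 ± 0.56 in vehicle, and neither passed. Without the libraries that stood apart it was −1.08 in leucine (edgeR adjusted p = 0.0115) and −0.39 in vehicle (adjusted p = 0.204). In leucine it was −1.03 without footprint library A3 alone (edgeR adjusted p = 0.00803) and −1.32 within set B (adjusted p = 0.000109). With treatment in the model, Gas5 footprints were lower in set B than in set A (log2 difference −2.01, edgeR adjusted p = 0.0171). Leucine A3 and vehicle A2 both belong to set A, and this comparison was not repeated without them. The other set A footprint libraries held 104 to 125 CPM and those of set B 46.8 to 62.8 CPM. The listed length of the Gas5 row, 2554 bases, is near that of the longest of its 20 retained-intron transcripts in GENCODE, 2556 bases, whereas its 5 transcripts of the lincRNA type run from 346 to 665 bases.

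**Figure D2:**
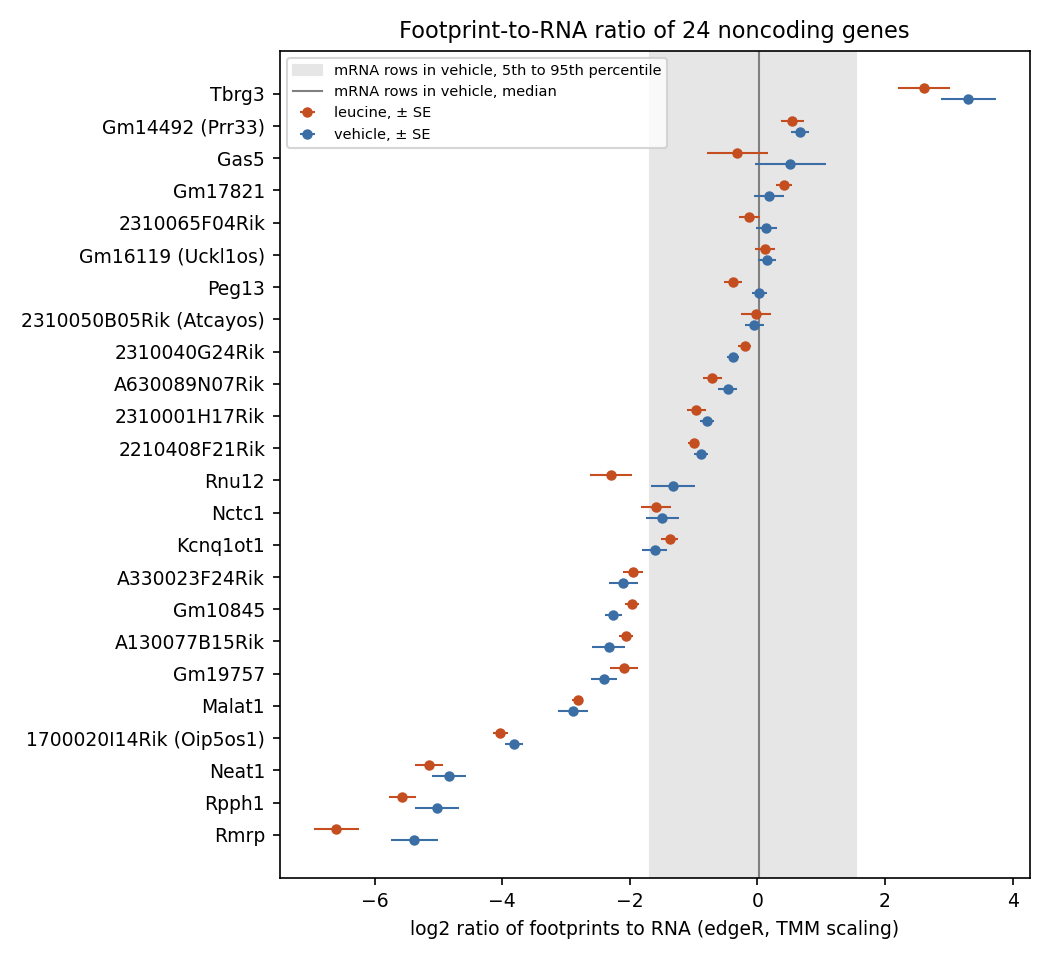
Log2 difference between footprints and RNA (x axis, edgeR fit, points with SE bars) for the 24 noncoding genes in leucine (orange) and vehicle (blue). Genes are ordered by their log2 ratio of mean CPM in vehicle. The grey band spans the 5th to 95th percentile of that ratio of mean CPM over mRNA rows in vehicle. Rmrp, Rpph1, Neat1 and Oip5os1 lie far to the left of the band in both treatments and Tbrg3 to its right.

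Whether the counted fragments on these RNAs came from ribosomes was not tested, since the files hold neither fragment lengths nor positions. In bulk tissue, fewer cells of a type and less RNA per cell also cannot be told apart.

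**Figure D3:**
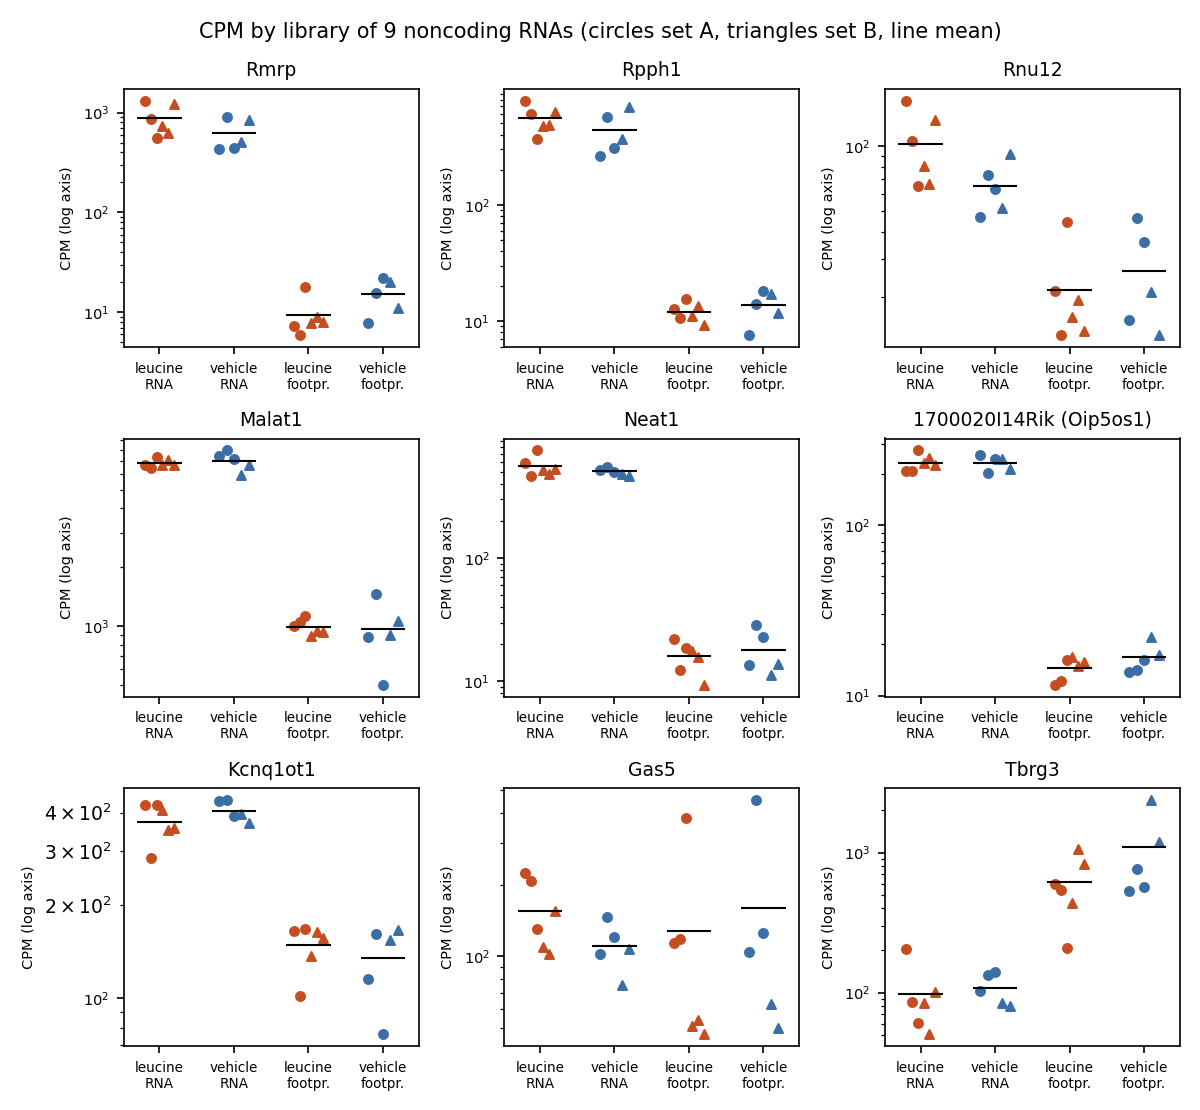
CPM on a log axis (y) in every library of 9 noncoding RNAs, with leucine RNA, vehicle RNA, leucine footprints and vehicle footprints from left to right, circles for set A, triangles for set B and a line at the group mean. Footprints of Rmrp, Rpph1, Neat1 and 1700020I14Rik stay under 30 CPM, at 5.86 CPM or more, where RNA lies between 202 and 1314 CPM, and those of Tbrg3 lie above its RNA.

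Rows of coding genes covered a range like that of mRNA rows. At the upper end Pnpla2, the triglyceride lipase of fat stores, had footprints of 161 ± 23.6 CPM in leucine (SD, n = 6) and 162 ± 54.8 CPM in vehicle (SD, n = 5), with ratios of 4.12 and 4.95. Its leucine log2 difference was 2.01, and 2.60 without RNA library A3, which held 104 CPM. Prmt1, a protein arginine methyltransferase, had ratios of 3.56 in leucine and 3.54 in vehicle, and Atp2a2, the calcium pump SERCA2 of slow fibres, 2.43 and 2.999. The vehicle footprints of Atp2a2 spread from 103 to 335 CPM, and within set B its vehicle difference missed the threshold. 2610001J05Rik, Minos1 (now Micos10, a subunit of the complex that shapes mitochondrial cristae), the procollagen protease Bmp1 and Rreb1, a zinc finger transcription factor, had vehicle ratios of 2.37, 2.20, 2.04 and 1.93. These 7 were higher in footprints than in RNA in both treatments except Rreb1, which passed the edgeR test in vehicle (adjusted p = 0.00103) and gave adjusted p = 0.0747 in leucine. Without leucine RNA library A3, Rreb1 passed there as well (log2 difference 1.22, adjusted p = 9.33e-08).

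At the lower end stood Icmt, which methylates prenylated proteins, with ratios of 0.212 in leucine and 0.214 in vehicle. The SUMO protease Senp2 had 0.232 and 0.271, and 0610012G03Rik had 0.342 and 0.285. These 3 were the coding members under the 5th percentile of mRNA rows in vehicle. Further low members, chosen after their values had been seen except for E2f6, were the chromatin protein gene Mllt10, the RNA-binding exosome adaptor gene Rbm7, Rabggtb, which encodes a subunit of the enzyme that prenylates Rab proteins, and the repressor gene E2f6, with vehicle ratios of 0.339, 0.352, 0.393 and 0.428. Clk1, a kinase of splicing factors, and Flcn, which acts in amino acid signalling to mTORC1, had 0.461 and 0.505. 2310044G17Rik (Cipc), an inhibitor of the circadian factor CLOCK, had 0.426 in leucine and 0.432 in vehicle. All 10 passed as lower in vehicle (edgeR, largest adjusted p = 1.81e-05, for Mllt10).

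The micropeptide rows had ratios near 1. Mrln (2310015B20Rik) footprints were 31.05, 41.2 and 44.4 CPM in leucine and 34.9, 41.01, 44.5, 47.7 and 52.8 CPM in vehicle. Its RNA was 24.98, 41.8 and 63.6 CPM in leucine and 35.3, 36.7, 45.02, 48.5 and 62.7 CPM in vehicle. The footprint libraries varied less than the RNA libraries, and the ratio was 0.879 in leucine and 0.968 in vehicle. Mtln (1500011K16Rik) had 84.1, 92.5 and 99.04 CPM of footprints in leucine and 75.7, 83.9, 85.3, 97.2 and 99.8 CPM in vehicle. Its RNA was 52.1, 74.8 and 90.7 CPM in leucine and 55.95, 72.7, 80.1, 90.3 and 95.3 CPM in vehicle. The ratio was 1.24 in leucine, which passed the edgeR test (adjusted p = 0.0430), and 1.12 in vehicle, which did not (adjusted p = 0.377). The leucine call did not hold under 10 of the alternatives tried, among them leaving out RNA library A1, A2 or B2 or footprint library A1, A2, A3 or B3 (adjusted p between 0.0544 and 0.0894). The log2 difference was 0.27 with all libraries, 0.026 within set B (edgeR adjusted p = 0.799) and 0.022 with total counts in place of TMM (adjusted p = 0.896), against the shift of all rows given above for that scaling. In vehicle Mtln (1500011K16Rik) was higher within set A (0.42, adjusted p = 0.0250), and in leucine Mrln (2310015B20Rik) was lower within set B (−0.43, adjusted p = 0.0316). Fth1, the iron-storing ferritin heavy chain, and Ppargc1a, a coactivator of mitochondrial genes, also sat near a ratio of 1, at 1.06 and 1.12 in leucine and 1.02 and 1.03 in vehicle.

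Leucine was then compared with vehicle within each assay. In RNA, 0 of the 85 members passed edgeR's test, as did 0% of all rows, and DESeq2 and limma-voom also called 0. At an unadjusted p under 0.05, 3 members were on the higher and 3 on the lower side, against 1.42% and 1.27% of all rows. In footprints, edgeR called 0 members in either direction, where 0.694% of all rows were higher and 0.0661% were lower. There limma-voom called 0 and DESeq2 called 1, and no DESeq2 share of all rows was taken to set beside it. At an unadjusted edgeR p under 0.05 there were 2 higher and 6 lower members, against 6.52% and 5.55% of all rows. The change of the ratio, tested as the interaction of treatment and assay, gave 0 members and 0% of rows by edgeR and 0 members by DESeq2 and limma-voom, with 0 members higher and 4 lower at an unadjusted p under 0.05 (3.65% and 3.44% of rows). The median log2 change of the members was 0.02 in RNA, −0.0035 in footprints and −0.05 in the ratio, beside −0.0017, −0.01 and −0.02 over all rows. No member had all leucine libraries above or below all vehicle libraries in either assay, an arrangement that 0.132% and 0.0661% of rows showed in RNA and 1.7% and 0.793% in footprints.

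Of the small structured RNAs, all 3 had positive RNA changes and negative footprint changes. Rmrp had a log2 change, leucine minus vehicle, of 0.50 ± 0.28 in RNA (edgeR adjusted p = 0.999) and −0.70 ± 0.32 in footprints (unadjusted p = 0.0480, adjusted p = 0.408). In footprints 5 of the 6 leucine libraries lay below 10 CPM and 4 of the 5 vehicle libraries above 11 CPM, with leucine A3 and vehicle A1 as the exceptions. Its ratio change was −1.21 ± 0.45 (edgeR unadjusted p = 0.0130, adjusted p = 0.507). Within set A the footprint change was −0.53, within set B −0.90, and without leucine footprint library A3 −0.997. Rpph1 had 0.34 ± 0.26 in RNA and −0.18 ± 0.20 in footprints, and its RNA change was 0.62 in set A and 0.0065 in set B. Rnu12 had 0.64 ± 0.26 in RNA (edgeR unadjusted p = 0.0313, adjusted p = 0.999) and −0.30 ± 0.40 in footprints. Its footprint change was −0.64 without leucine footprint library A3, 0.0063 without vehicle footprint library A2 and −0.34 without both. Leucine RNA libraries A1 and B3 and vehicle RNA libraries A2 and B2 were the highest of their groups in all 3 RNAs. The 10 small nucleolar RNA rows had a median log2 change of 0.62 in RNA and −0.58 in footprints and 0 called by edgeR in either (unadjusted p below 0.05 for 5 rows in RNA and 1 row in footprints), and their share of RNA counts was 0.0507% to 0.115% in leucine and 0.0319% to 0.0624% in vehicle. The footprint median of these rows was −1.32 without leucine footprint library A3 (10 negative), 0.13 without vehicle footprint library A2 (5 positive and 5 negative) and −0.55 without both (1 positive and 9 negative). Their part in the values of Rmrp, Rpph1 and Rnu12 was not tested.

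Gas5 had a log2 RNA change of 0.48 ± 0.23 and a footprint change of −0.32 ± 0.74, with edgeR adjusted p = 0.999 and 0.912. The footprint value was 0.59 without vehicle A2, −1.03 without leucine A3 and −0.13 without both, so that 1 library set its sign. Tbrg3 had the most negative footprint change, −0.83 ± 0.47 (edgeR adjusted p = 0.511), and the value was −0.32 without vehicle B1, its highest library. Malat1 and Neat1 had RNA changes of −0.05 ± 0.0913 and 0.14 ± 0.12 and footprint changes of 0.046 ± 0.20 and −0.16 ± 0.27. Kcnq1ot1 had −0.12 ± 0.11 and 0.14 ± 0.19, and Oip5os1 −0.0077 ± 0.0943 and −0.19 ± 0.13.

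Atcayos was the member with the most negative RNA change. Its RNA was 11.2, 15.03 and 25.2 CPM in leucine and 19.4, 19.8, 21.04, 25.8 and 30.5 CPM in vehicle, and its footprints were 11.3, 16.01 and 24.1 CPM in leucine and 18.4, 20.8, 22.1, 23.01 and 29.7 CPM in vehicle. The groups overlapped in both assays, where leucine A1 and A2 reached vehicle levels and the other 4 leucine libraries did not. The log2 change was −0.48 ± 0.22 in RNA and −0.43 ± 0.20 in footprints (edgeR unadjusted p = 0.0499 and 0.0469, adjusted p = 0.999 and 0.403). Within set A the footprint change was −0.0063 and within set B −1.01. 2310040G24Rik and Gm10845 had RNA changes of −0.30 ± 0.13 and −0.21 ± 0.0880 and footprint changes of −0.091 ± 0.0680 and 0.11 ± 0.15. The footprint change of Gm10845 was 0.45 within set A and −0.34 within set B. Peg13 had 0.18 ± 0.12 in RNA and −0.21 ± 0.14 in footprints, and its ratio change was −0.40 ± 0.19 (edgeR unadjusted p = 0.0474, adjusted p = 0.690). In leucine alone its footprints were below RNA (ratio 0.779, edgeR adjusted p = 0.0215), which did not hold without the libraries that stood apart (adjusted p = 0.0674).

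**Figure D4:**
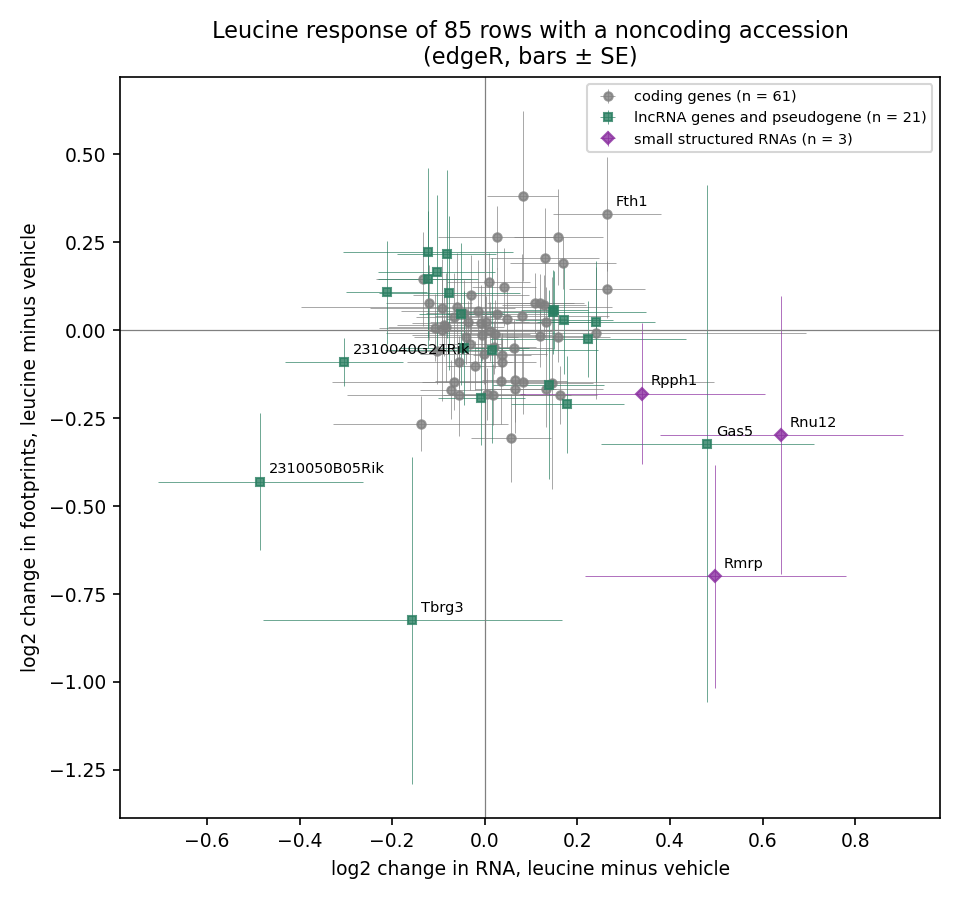
Log2 change in RNA (x) against log2 change in footprints (y), leucine minus vehicle, with SE bars, for the 61 coding genes (grey), the 20 lncRNA genes and 1 pseudogene (green squares) and the 3 small structured RNAs (purple diamonds). Most points lie within 0.3 of 0 on both axes; Rmrp, Rpph1, Rnu12 and Gas5 lie at the lower right, and no member passed the edgeR test in either assay.

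Among the coding members, Ankrd11, a chromatin regulator gene, came closest in footprints. Its footprints were 32.1, 35.9 and 41.97 CPM in leucine and 38.8, 42.998, 43.05, 44.5 and 48.9 CPM in vehicle. Only leucine A3 and vehicle B2 crossed, and the log2 change was −0.27 ± 0.0779 (edgeR unadjusted p = 0.00463, adjusted p = 0.162). DESeq2 called it lower, with −0.26 and adjusted p = 0.0327. The footprint change was −0.28 in set A and −0.21 in set B, beside an RNA change of −0.14 ± 0.19.

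Krit1, which encodes a protein of endothelial cell junctions, had the smallest p for the ratio. Its footprints were 12.9, 14.5 and 15.9 CPM in leucine and 14.6, 14.8, 16.9, 17.1 and 18.9 CPM in vehicle, and its RNA was 19.5, 21.7 and 24.3 CPM in leucine and 17.8, 18.1, 18.3, 21.1 and 21.2 CPM in vehicle. Leucine values thus sat toward the low side in footprints and the high side in RNA, with overlap in both. The ratio was 0.665 in leucine and 0.853 in vehicle, a log2 change of −0.36 ± 0.12 (edgeR unadjusted p = 0.00540, adjusted p = 0.375), and the value lay between −0.40 and −0.31 under the alternatives tried. E2f6 had a ratio change of −0.38 ± 0.16 and a footprint change of −0.31 ± 0.12, with adjusted p = 0.633 and 0.333 by edgeR. Fut8, a fucosyltransferase gene, had a ratio change of −0.31 ± 0.16 (adjusted p = 0.756).

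Minos1 had the smallest p in RNA. Its RNA was 36.3, 40.97 and 46.6 CPM in leucine and 30.4, 33.6, 33.8, 35.1 and 38.1 CPM in vehicle, and its footprints were 70.8, 80.8 and 88.7 CPM in leucine and 66.2, 72.2, 75.3, 78.4 and 83.2 CPM in vehicle. In RNA only leucine A1 lay below the highest vehicle library, and the log2 change was 0.26 ± 0.0815 (edgeR unadjusted p = 0.00716, adjusted p = 0.999). Fth1 had 0.26 ± 0.12 in RNA and 0.33 ± 0.16 in footprints, with means of 463 ± 125 CPM of footprints in leucine (SD, n = 6) and 370.4 ± 44.3 CPM in vehicle (SD, n = 5). Sra1, a gene known for both a coding and a noncoding product, had footprints of 51.03, 56.4 and 63.5 CPM in leucine and 39.9, 44.03, 50.8, 51.7 and 53.4 CPM in vehicle. Its footprint change was 0.26 ± 0.0896 (edgeR unadjusted p = 0.0112, adjusted p = 0.232), and that of Psmd2, a subunit of the proteasome's regulatory particle, was 0.19 ± 0.0741 (adjusted p = 0.305). Dcaf11, a substrate receptor of a ubiquitin ligase, had −0.18 ± 0.0732 (adjusted p = 0.324). Mrln and Mtln had footprint changes of −0.18 ± 0.12 and 0.064 ± 0.0815, and Flcn 0.0083 ± 0.15.

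The authors' deposited RNA table held 79 of the members, with a lowest FDR of 0.993 and 0 members under 0.05. With treatment in the model, 19 members differed between sets A and B in RNA and 21 in footprints by edgeR, where 18.8% and 23.8% of all rows did. The edgeR test of a different leucine change in the sets called 0 members and 0% of all rows in either assay. At an unadjusted p below 0.05 there were 0 members in RNA, against 1.82% of all rows, and 5 members in footprints, against 2.91% of all rows. These 5, named after their values were seen, were Gm10845, A630089N07Rik, Atcayos, Tmem161b and Irf3. DESeq2 and limma-voom were not run on it.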

How the data were processed

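RNA sequencing and ribosome profiling were run on 22 libraries of quadriceps. Per the labels' protocols, ribosomal RNA was removed from QIAzol extracts, and footprints were monosome fragments left after RNase digestion of crude polysomes; libraries of both kinds were made with a small RNA kit. The submitters' processing notes name Bowtie, edgeR and mouse build mm9, without versions. The authors deposited whole-number counts per gene, which were used as they stand in 6054 rows. The authors' edgeR tables hold log2 fold changes and, per the file headers, p-values with FDR; they were used for description only, and only the RNA table holds members.

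All fits used edgeR 4.0.16 (R 4.3.3; TMM, filterByExpr, which removed 0 rows, robust quasi-likelihood tests, Benjamini-Hochberg adjustment over all rows, threshold 0.05). Fits compared leucine with vehicle in each assay, the interaction of treatment and assay over 22 unpaired libraries, and footprints with RNA within a treatment. Standard errors are the log2 value over the root of F. Alternatives used limma 3.58.1 and DESeq2 1.42.0, other scalings, no filter, sets A and B and leaving out libraries. The tests were checked on simulated counts. Those counts were drawn without a difference between the sets and without single outlying libraries, so the check covers neither. Gene classes came from the RefSeq GRCm38.p6 table, which matched 74 members by accession, 7 by symbol and 4 by synonym, and that split was made after the accessions had been seen. The members and lists were chosen with earlier results of these data known. Named members are the 6 with the smallest p in each leucine comparison, the 8 highest and 8 lowest ratios in vehicle, the 6 with the most RNA, and the classes of the symbol lists: snoRNA host (Gas5), imprinted (Kcnq1ot1, Peg13), nuclear (Malat1, Neat1, Kcnq1ot1), small structured RNAs and 19 clone or predicted names. Any other member that is named was chosen after its values had been seen. The lists of microRNA genes and of pseudogene symbols had 0 members, and the antisense pattern caught only Minos1 and Gas5, by their spelling. Markers of other cells in RNA counts were 0.172% to 0.447% in leucine and 0.186% to 0.333% in vehicle for fibroblasts. Endothelial, macrophage and adipocyte lists took at most 0.0658% in any RNA library. Of these, 3 of 3 endothelial, 2 of 3 macrophage and 1 of 3 adipocyte markers (Fabp4) were listed, and 0 of 2 erythroid markers. In footprints, fibroblast markers took 0.72% to 1.07% in leucine and 0.836% to 1.66% in vehicle, and Fabp4 at most 0.118%.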

Additional observations from a re-analysis of the deposited data

Results flagged for a closer look

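In 20 members shown by library, 80 groups of libraries were screened for a highest or lowest value far from the others, and 7 were found; chance gives about 1 in 20 groups. Leucine footprint library A3 was the highest of its group for Rmrp, at 18.1 CPM against 8.99 CPM in the next library, for Rnu12, at 44.5 CPM against 21.2 CPM, and for Gas5, at 380.0 CPM against 118 CPM. Vehicle footprint library A2 held 455 CPM of Gas5, against 125 CPM in the next library of its group. Leucine RNA library A3 was the highest of its group for Peg13, at 29.3 CPM against 22.001 CPM, and for Ankrd11, at 104 CPM against 68.8 CPM. Tbrg3 RNA reached 204 CPM in leucine A1, against 101 CPM in the next leucine library.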

How the results depend on the processing

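No paired analysis was possible because the count columns carry no replicate numbers. The counts of 0 members in RNA and in the ratio change held under every alternative tried. In footprints DESeq2 called 1 member lower (Ankrd11), with no DESeq2 share of all rows beside it, and the others called 0. The median footprint change of the members was −0.033 within set B, and −0.032 to 0.0079 on leaving out single libraries. For footprints against RNA, the median log2 difference was −0.35 in leucine and −0.26 in vehicle. In leucine it was −0.62 with total counts only and −0.43 within set B. In vehicle it was −0.36 with total counts only, −0.35 within set B and −0.33 without the 3 libraries that stood apart (an alternative chosen after seeing the data); leaving out single libraries gave −0.33 (without footprint library A2) to −0.22. Total counts only also moved the median of all rows to −0.25 in leucine and −0.10 in vehicle, and left 13 members higher in leucine. Leaving out single libraries gave 42 to 45 lower and 19 to 21 higher members in leucine, and 41 to 45 and 18 to 21 in vehicle. The other alternatives gave 42 to 53 lower and 13 to 20 higher in leucine, and 41 to 45 and 14 to 23 in vehicle. No share of all rows called under an alternative was taken to set beside these counts. No direction of a called member reversed. Where other values moved, the cause was not tested. The floor of 129 counts per library limits which RNAs could be measured.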
